A study of Homo sapiens and Mus musculus with 69 samples.

Results

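The AP-1 transcription factors described here were 9 genes, *FOS*, *FOSB*, *FOSL1*, *FOSL2*, *JUN*, *JUNB*, *JUND*, *ATF3* and *BATF3*, taken by symbol from the 20516 genes of the human table, together with the mouse genes of the same name among the 18501 genes of the KP1 table. All 9 were found in both tables. The values came from bulk RNA-Seq of 69 libraries in 23 groups of 3, of which 60 libraries were of human small cell lung cancer (SCLC) lines and 9 of a mouse line. Every value below is a log2(RPKM + 1), where RPKM is reads per kilobase of transcript, scaled to the size of the library, so a level is corrected for transcript length and a difference of 1 is a doubling of RPKM + 1 and understates the change of low genes.

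H82 and H524, of the *NEUROD1* subtype of SCLC, and the SCLC line H69 were each sampled as the parental line and with a doxycycline-inducible vector for N1ICD, the active intracellular domain of NOTCH1, with or without doxycycline at 1 µg/mL. H82 cells with the N1ICD vector were also sampled after CRISPR-Cas9 knockout of *REST* or of *STING1*, and H524 cells also with an inducible vector for REST, a repressor of neuronal genes that NOTCH signaling induces, each with or without doxycycline. COR-L88 carried no vector for N1ICD and received DMSO, 100 nM of TAS1440, an inhibitor of the histone demethylase LSD1, or TAS1440 with 2 µM of the γ-secretase inhibitor (GSI) BMS-708163, which blocks the cleavage that releases N1ICD, for 28 days. COR-L88 cells with *STING1* knockout received DMSO or TAS1440. KP1, a mouse SCLC line from a model that lacks *Rb1* and *Trp53*, received DMSO, 100 nM of TAS1440, or TAS1440 with 10 µM of the GSI DBZ.

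Several features limit these groups as models. The N1ICD-expressing cells of H82, H524 and H69 had become adherent in long-term culture with doxycycline and were recovered with trypsin, so in H82 and H69 N1ICD, doxycycline, adherence and the way of harvest cannot be told apart. In H524 the REST cells also received doxycycline and, by the study's methods, were also collected as adherent cells, so N1ICD and REST cells can be compared there with doxycycline in both. Each knockout was made with a single target sequence. The paper's immunoblots show the *REST* and *STING1* knockouts as single-cell clones, and the clones behind these libraries are not given. Knockout and clone therefore cannot be told apart in the comparisons with intact cells. The libraries of a group are not described as separate cultures, so the adjusted *P* values measure the spread between these libraries, which may be technical.

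AP-1 is a dimer of basic leucine zipper (bZIP) proteins. Proteins of the FOS family (FOS, FOSB, FOSL1 and FOSL2) bind DNA only as a dimer with a partner, most often a JUN protein (JUN, JUNB or JUND), whereas JUN proteins can also pair with each other and with ATF3 and BATF3. *FOS*, *FOSB*, *JUN*, *JUNB* and *ATF3* are immediate early or stress-induced genes, transcribed within minutes of a stimulus such as serum, handling or heat, while *FOSL1* and *FOSL2* follow more slowly and are known for high expression in cells with mesenchymal features.

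AP-1 dimers bind the sequence TGANTCA (the TPA response element, TRE) and, with ATF proteins, TGACNTCA (the cAMP response element, CRE, and its variants), and the promoters of several AP-1 genes hold such sequences themselves. RefSeq promoters (GRCh38.p14, from 250 bases before to 50 after a start site) were matched for 7 of the 9 members, not *FOSL1* and *BATF3*, with 8 start sites in all. They were searched on both strands for these letters and for TGGGAA, the core bound by RBPJ, the DNA-binding partner of N1ICD. A TRE was found in 1 member and in 7.71% of all 35116 promoters, a CRE in 3 members and in 7.72% of all promoters, and TGGGAA in 2 members (*JUN* and *ATF3*) and in 24.0% of all promoters. None of the 8 windows held a strict match to a CArG box, the letters of the serum response element, found in 1.29% of promoters. Sequence more than 250 bases before a start site was not searched, so an element farther upstream or with other letters would be missed. The matches with up to 40 bases on either side are shown because they are the places where AP-1 members could act on their own genes, with the match in capitals, 5′ to 3′ on the strand of the gene, at chr1:58784067-58784154 (minus strand), chr19:18281775-18281862 (minus), chr1:212565244-212565331 (plus) and chr2:28392822-28392886 (plus), in this order.
*JUN*, CRE: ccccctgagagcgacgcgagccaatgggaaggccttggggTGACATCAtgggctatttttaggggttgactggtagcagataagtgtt
*JUND*, CRE: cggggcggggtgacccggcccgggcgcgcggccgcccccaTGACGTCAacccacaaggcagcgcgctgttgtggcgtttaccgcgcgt
*ATF3*, CRE: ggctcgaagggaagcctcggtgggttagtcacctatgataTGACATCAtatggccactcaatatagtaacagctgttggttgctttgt
*FOSL2*, TRE: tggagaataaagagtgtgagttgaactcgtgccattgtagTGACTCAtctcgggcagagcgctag
The *JUN*, *JUND* and *ATF3* matches began 67, 200 and 123 bases before the start site, and the *FOSL2* match began at base 5 after it. A match is only a description of these letters, and no binding was measured here.

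In GRCh37 (GENCODE v44 lifted over) *FOS* lies at chr14:75745529-75748933, *FOSL1* at chr11:65659520-65668044, *FOSL2* at chr2:28615315-28640184, *JUN* at chr1:59242517-59249720 and *JUND* at chr19:18390504-18392432. *FOSB* (chr19:45971253-45978437) overlaps *ERCC1*, *JUNB* (chr19:12902300-12904129) overlaps *HOOK2*, and *FOSL2* overlaps the antisense RNA *FOSL2-AS1*, in each case on the opposite strand. *FOSL2* also overlaps the RNA ENSG00000270640 on its own strand. The libraries were made with a stranded kit, but whether the counting used the strand is not given in the sources used here, so reads of the pairs on opposite strands may not have been told apart, and strand would not separate the pair on the same one. *ATF3* (chr1:212738676-212794119) and *BATF3* (chr1:212859759-212873182) are neighbours on chromosome 1.

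The total number of reads is unknown, but the steps between the lowest values gave relative library sizes of 0.70 to 1.52 times the median of the human table and 0.87 to 1.08 times that of the KP1 table. *NOTCH1* was at 4.26 or above in each induced N1ICD library and at 2.15 or below in each uninduced one, where it still exceeded the parental level of 0.01 to 0.04 in H82. *REST* was lower in the H82 *REST* knockout libraries than in intact ones, at 3.99 to 4.20 against 4.42 to 4.80 without doxycycline and at 4.95 to 5.89 against 6.13 to 6.48 with it. The *STING1* transcript (listed as *TMEM173*) was lower in COR-L88 *STING1* knockout cells than in intact cells under TAS1440 (0.96 to 1.16 against 2.03 to 2.54), but in H82 the libraries labelled *STING1* knockout had more of it than intact ones, at 0.11 to 0.55 against 0 to 0.04 without doxycycline and at 1.27 to 2.04 against 1.07 to 1.17 with it. A small edit need not lower a transcript, so these levels do not check the edit. The 9 neuroendocrine (NE) markers, which define SCLC, were present in every untreated line, with 8 or 9 at a mean of at least 1 in the parental and DMSO groups of the human lines and 7 in KP1.

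Some libraries stood apart from the others of their group in immediate early genes, before any comparison. In 4 libraries, *EGR1*, an immediate early gene that is not an AP-1 member, was 2.08 to 5.42 above the median of its group. These were library 1 (H82 parental), 10 (COR-L88 DMSO), 30 (H82 *REST* knockout without doxycycline) and 59 (H82 labelled *STING1* knockout with doxycycline), and in them *FOS* was 2.71 to 6.01 and *FOSB* 1.78 to 5.77 above the median. In 5 others (5, 23, 34, 37 and 49, none of them treated to express N1ICD), *HSPA1A*, a heat shock gene with the near-identical copy *HSPA1B*, was 2.05 to 5.11 above the median, *EGR1* was at most 0.11 above it, *FOS* was 0.54 to 2.08 above it and *JUN* 0.32 to 2.14. Results that rest on these libraries are given with and without them, an alternative chosen after the values were seen.

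**Figure D1:**
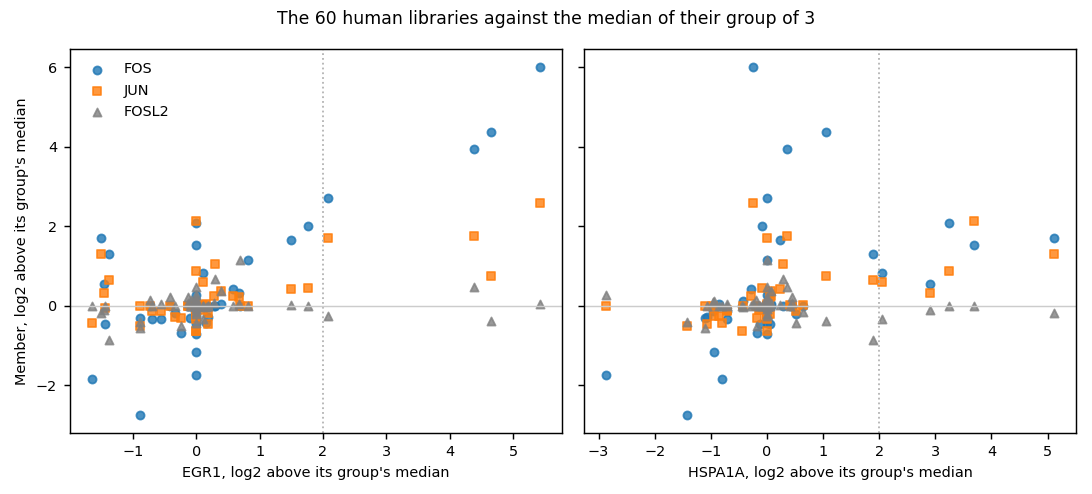
Each point is a member's log2 value in 1 of the 60 human libraries, less the median of its group of 3, against the same quantity for *EGR1* (left) or *HSPA1A* (right). *FOS* and *JUN* lie above 0 in the 4 libraries to the right of the dotted line at 2 in *EGR1* and in the 5 to its right in *HSPA1A*, whereas *FOSL2* stays between -0.85 and 1.14.

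The members differed in how much they varied within groups. The pooled standard deviation within the 20 human groups was 1.49 for *FOS*, 1.05 for *FOSB* and 0.95 for *FOSL1*, against a median of 0.24 over all genes tested, and 0.70, 0.67 and 0.61 for *JUN*, *JUNB* and *ATF3*. It was 0.31 for *FOSL2*, 0.32 for *JUND* and 0.33 for *BATF3*. Over the 60 libraries, deviations of *FOS* from its group mean went with those of *JUN* (Pearson's r = 0.87), *FOSB* (r = 0.84) and *JUNB* (r = 0.68) and not with those of *FOSL2* (r = -0.02), and those of *FOSL1* went with *BATF3* (r = 0.61) and *FOSL2* (r = 0.55). These correlations are descriptions over libraries that share a group mean. A difference in *FOSL2* was therefore measured with a smaller error than one of the same size in *FOS*.

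Without treatment, the JUN family was the more abundant part of AP-1 in these lines. *JUND* had the highest mean of the 9 members in the parental or DMSO group of H82 (4.11 ± 0.59, SD, n = 3, as for all groups), H524 (5.88 ± 0.27) and H69 (7.50 ± 0.21) and in the KP1 DMSO group (6.69 ± 0.05), and in COR-L88 DMSO *JUN* (5.94 ± 0.69) and *JUND* (5.90 ± 0.26) had nearly the same mean. The libraries of *JUND* lay above those of every other member in H69 and KP1, but overlapped those of *JUNB* (3.58 ± 1.15) in H82 and of *JUN* (5.54 ± 0.44) in H524. Parental H82 had more *FOSL1* (2.51 ± 1.28) than *FOSL2* (0.22 ± 0.28), and parental H524 was low in both (0.63 ± 0.33 and 1.32 ± 0.58). COR-L88 and H69 had *FOSL2* (3.12 ± 0.25 and 2.83 ± 0.33) and less *FOSL1* (0.44 ± 0.50 and 0.78 ± 0.32). After N1ICD in H69, *JUNB* (7.36 ± 0.02) and *FOSL1* (7.20 ± 0.03) had the highest means, with no overlap with *JUND* (6.57 ± 0.11).

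**Figure D2:**
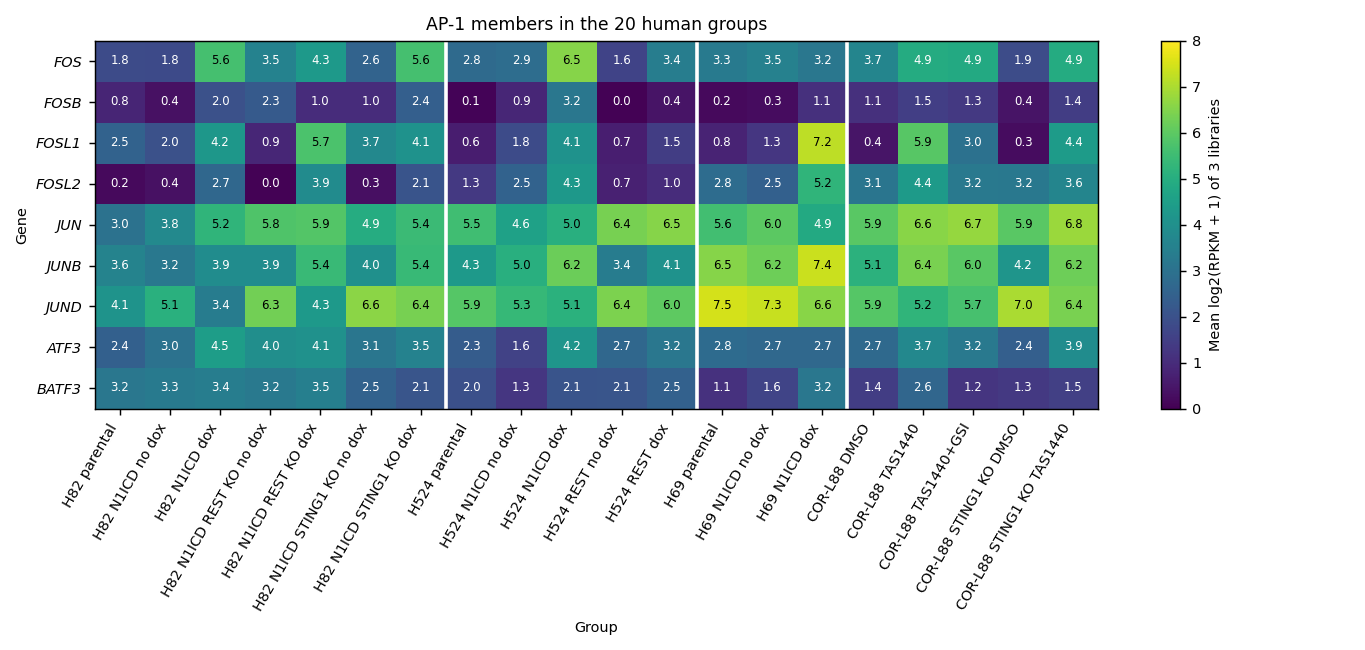
Colours and printed values give the mean log2(RPKM + 1) of 3 libraries for each member (rows) in each of the 20 human groups (columns), with white lines between the lines H82, H524, H69 and COR-L88. *FOSL2* brightens in each induced N1ICD column against its uninduced one, while *FOS* in H69 does not, and *JUND* is highest in H69 parental cells (7.5).

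At least 2 genes of the FOS family were higher in N1ICD cells with doxycycline than without it in each of H82, H524 and H69. A gene was called when its adjusted *P* in limma was under 0.05 and its log2 difference at least 1, and genes were tested where at least 3 libraries of the line reached 1. In H82, 4 of 9 members were called between doxycycline and no doxycycline, *FOS*, *FOSL1* and *FOSL2* higher and *JUND* lower, where 27.1% of all genes tested were called. In H524, 5 of 9 were called, *FOS*, *FOSB*, *FOSL2*, *JUNB* and *ATF3*, all higher, against 18.6% of all genes. H69 had 5 of 8 called, *FOSL1*, *FOSL2*, *JUNB* and *BATF3* higher and *JUN* lower, against 41.8% of all genes. *FOSL2* was the only member called higher in all 3 lines.

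Before induction, few members differed between the lines with the N1ICD vector and their parental lines. No member was called between uninduced and parental H82 (6.41% of all genes) or H69 (5.27%) in limma, where 1 of 9 and 2 of 8 members had an unadjusted *P* under 0.05. In H524, *FOSL2* was higher in uninduced N1ICD cells (2.51 ± 0.80) than in parental cells (1.32 ± 0.58), by 1.19 ± 0.35 (SE, as for all differences; adjusted *P* = 0.0244), against 12.1% of all genes. That call was lost without library 20 (0.86, adjusted *P* = 0.0997) or 22 (0.74, adjusted *P* = 0.0881). Other members were called there without 1 library, *JUN* (-1.76) and *ATF3* (-1.21) without library 23, *BATF3* (-1.09) without 22, and *FOSB* (1.21) and *JUNB* (1.22) without 24. In H82, *JUN* and *JUND* were called higher in uninduced than in parental cells once library 1 was left out with the others high in *EGR1* (1.44 and 1.32, adjusted *P* = 0.0168 and 0.0036), and *JUND* also without library 4 alone (1.24, adjusted *P* = 0.0125).

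*FOSL2*, which encodes the FOS-family protein FRA-2, was near 0 in uninduced H82 (0.18, 0.38 and 0.52) and at 2.85, 2.28 and 2.89 with doxycycline. No library of either group overlapped the other, and the difference was 2.31 ± 0.20 (adjusted *P* = 3.46e-08). In H524 its values were 3.41, 2.27 and 1.86 without and 4.07, 4.54 and 4.16 with doxycycline, a difference of 1.75 ± 0.35 (adjusted *P* = 0.00175). H69 went from 2.23, 2.33 and 2.80 to 5.27, 5.21 and 5.20, a rise of 2.77 ± 0.19 (adjusted *P* = 1.2e-06). These 3 calls held when each library was left out in turn.

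*FOSL1*, which encodes FRA-1, rose most in H69, from 1.25, 1.79 and 0.78 to 7.20, 7.17 and 7.22 (5.92 ± 0.25, adjusted *P* = 5.72e-08). In H82 it rose from 1.88, 1.78 and 2.32 to 5.02, 4.01 and 3.66, by 2.24 ± 0.59 (adjusted *P* = 0.00421), and both calls held without any single library. H524 libraries without doxycycline were uneven, at 5.08, 0.36 and 0, against 4.53, 4.45 and 3.22 with it, so that the groups overlapped and the difference of 2.25 ± 0.95 was not called (adjusted *P* = 0.0878). Without library 22, the one at 5.08, the difference was 3.89 (adjusted *P* = 4.53e-06). That library also had the highest *FOSL2* (3.41) and *BATF3* (2.07) of its group and the lowest *TMEM173* (0.45 against 1.43 and 3.25).

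*FOS*, the prototype immediate early gene of the family, was at 0.63, 3.43 and 1.35 in uninduced H82, where the middle value is library 5, one of those high in *HSPA1A*, and at 5.64, 5.33 and 5.97 with doxycycline. The groups did not overlap, and the rise was 3.85 ± 1.32 (adjusted *P* = 0.0217), but the call was lost without library 4, 6 or 9 (3.26 to 3.69, adjusted *P* = 0.0581 to 0.0748). In H524, *FOS* rose from 3.26, 4.79 and 0.51 to 6.69, 6.73 and 6.22 (3.69 ± 0.96, adjusted *P* = 0.00918). H69 was different, with 3.96, 3.13 and 3.42 before and 3.29, 3.30 and 2.96 after induction, groups that overlapped (-0.32 ± 0.27, adjusted *P* = 0.303).

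*FOSB*, a close relative of *FOS* and also an immediate early gene, was called in H524 alone, from 0.91, 1.69 and 0.02 to 2.90, 4.14 and 2.52 (2.31 ± 0.40, adjusted *P* = 0.000474). In H82 it was at 0.42, 0.49 and 0.17 without and 2.48, 0.84 and 2.64 with doxycycline, with no overlap, yet the difference of 1.63 ± 1.06 was not called (adjusted *P* = 0.214). It was called when only these 6 libraries were fitted (adjusted *P* = 0.0276). *FOSB* was under the filter in H69, at 0.39, 0.17 and 0.22 without and 1.16, 0.94 and 1.24 with doxycycline.

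**Figure D3:**
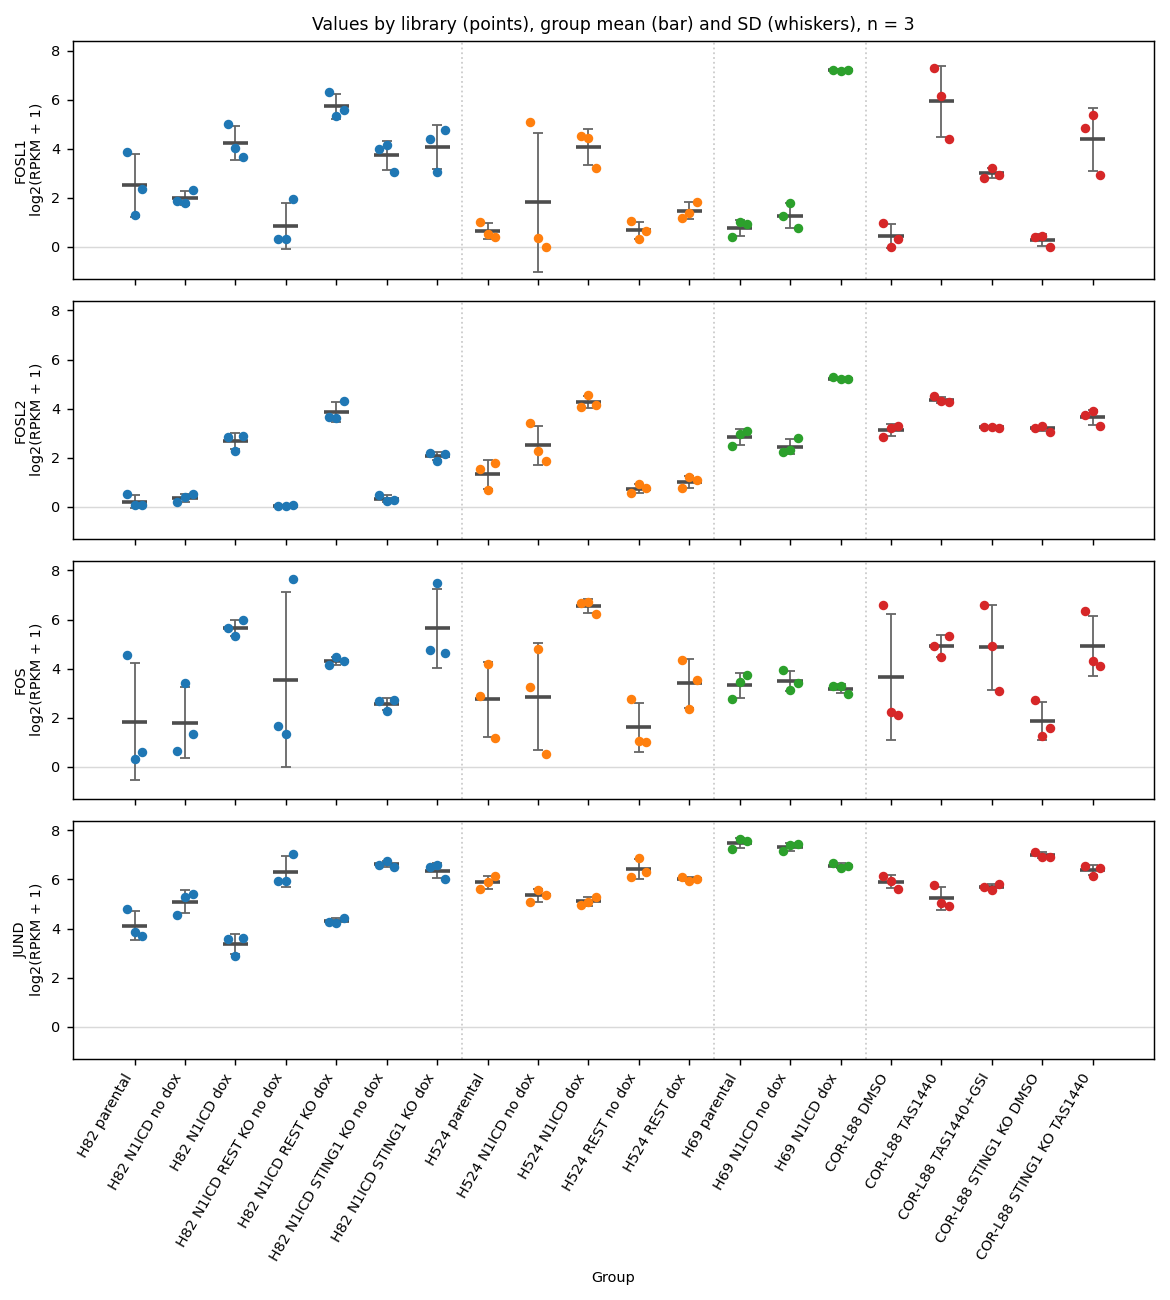
Points are the log2(RPKM + 1) of *FOSL1*, *FOSL2*, *FOS* and *JUND* in each human library, coloured by line, with bars for the mean and whiskers for the SD of 3 libraries. *FOSL2* is higher in each induced N1ICD group than in its uninduced one, with a spread of 1.86 to 3.41 in uninduced H524, while *FOS* spreads from 1.35 to 7.66 within the H82 *REST* knockout group without doxycycline.

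The JUN family, which supplies the partners of FOS proteins, moved less and not in one direction. *JUNB*, often described as the weaker activator of the family, rose in H69 from 6.05, 6.38 and 6.25 to 7.37, 7.34 and 7.36 (1.13 ± 0.10, adjusted *P* = 8.86e-06) and in H524 from 5.47, 5.54 and 4.12 to 6.35, 6.38 and 5.90 (1.16 ± 0.37, adjusted *P* = 0.0273). The H524 call was lost without library 24, 25 or 26 (0.70 to 1.09, adjusted *P* = 0.0824 to 0.12), and quantile normalization brought the H69 difference to 0.96. In H82 the *JUNB* groups overlapped (0.67 ± 0.52, adjusted *P* = 0.295).

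*JUN* itself, the main partner of FOS, fell in H69 from 6.36, 5.59 and 6.04 to 5.07, 4.83 and 4.69, with no overlap, by 1.13 on the log2 scale (SE 0.19, adjusted *P* = 0.000534). Without library 49, high in *HSPA1A*, the difference was -0.95 (adjusted *P* = 0.001). In H82, *JUN* was at 3.27, 4.46 and 3.59 before and 4.99, 5.26 and 5.46 after induction, groups that did not overlap (1.46 ± 0.67, adjusted *P* = 0.076), and the difference was called when only these libraries were fitted (adjusted *P* = 0.0127). H524 had overlapping values of 4.03, 6.18 and 3.53 and of 4.93, 5.29 and 4.87 (0.45 ± 0.56, adjusted *P* = 0.583), with 1.25 (adjusted *P* = 0.0288) once library 23, high in *HSPA1A*, was left out.

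*JUND*, which is expressed in most cells without a stimulus, was the member that fell in H82, from 4.56, 5.29 and 5.42 to 3.57, 2.89 and 3.63 (-1.73 ± 0.32, adjusted *P* = 0.000242). The call held without any single library. In H69, values of 7.14, 7.41 and 7.43 went to 6.69, 6.48 and 6.53, groups with no overlap, but the difference of -0.76 ± 0.12 was under the size needed for a call (adjusted *P* = 0.000369). The H524 groups overlapped (-0.25 ± 0.21, adjusted *P* = 0.417).

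*ATF3*, a stress-induced bZIP gene whose product pairs with JUN proteins, rose in H524 from 1.32, 2.54 and 0.88 to 3.82, 4.47 and 4.25 (2.60 ± 0.34, adjusted *P* = 4.05e-05). In H82 its values were 1.55, 4.15 and 3.31 before and 4.28, 4.81 and 4.30 after induction, with no overlap and no call (1.46 ± 0.66, adjusted *P* = 0.0731). Leaving out library 5, high in *HSPA1A*, gave 2.03 (adjusted *P* = 0.0243). H69 was level, at 2.84, 2.46 and 2.82 and at 2.78, 2.64 and 2.72 (0.01 ± 0.16, adjusted *P* = 0.97).

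*BATF3*, known for its role in dendritic cells, followed another pattern. It rose in H69 from 1.66, 1.83 and 1.41 to 3.17, 3.07 and 3.28 (1.54 ± 0.16, adjusted *P* = 2.24e-05) and was at about the same level in both H82 groups (3.28 ± 0.19 and 3.38 ± 0.20). In H524 the groups overlapped, at 2.07, 1.18 and 0.57 against 2.05, 1.88 and 2.32 (0.81 ± 0.29, adjusted *P* = 0.0453), and the difference reached 1.21 without library 22 (adjusted *P* = 0.000817).

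**Figure D4:**
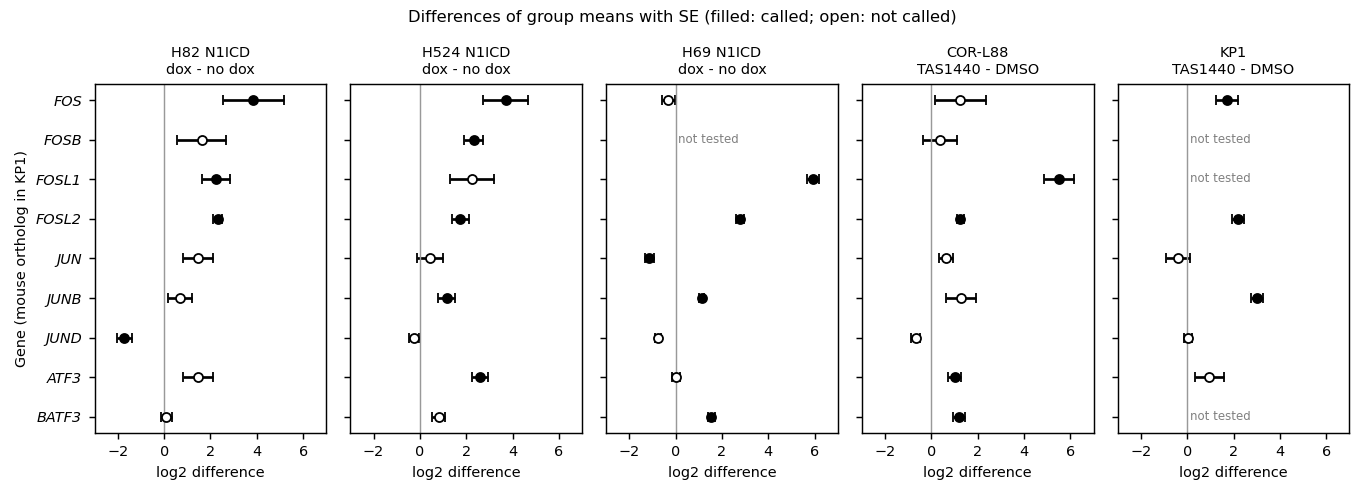
Points are differences of group means on the log2(RPKM + 1) scale with their SE, for each member in the 5 main comparisons, filled where called and open where not, with "not tested" for members under the filter. *FOSL2* lies to the right of 0 and is filled in all 5 panels, and *FOSL1* reaches 5.92 in H69 and 5.49 in COR-L88.

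The response to N1ICD was compared between lines in a fit over all 60 human libraries. Mean *NOTCH1* with doxycycline was lower in H82 (4.86 ± 0.66) than in H524 (8.06 ± 0.42) or H69 (7.99 ± 0.08). The lines were therefore not compared at an equal *NOTCH1* level, and its part in the differences below was not tested. Against H82, the response in H69 was lower for *FOS* (by -4.16 ± 1.65, adjusted *P* = 0.0276) and *JUN* (-2.59 ± 0.78, adjusted *P* = 0.00397) and higher for *FOSL1* (3.69 ± 1.05, adjusted *P* = 0.00239) and *BATF3* (1.44 ± 0.37, adjusted *P* = 0.00081), 4 of 9 members where 43.1% of all genes were called. *JUN* went in opposite directions, down in H69 and, without a call, up in H82. Against H524, H69 had a smaller response of *FOS* (-4.01 ± 1.65, adjusted *P* = 0.037) and *ATF3* (-2.59 ± 0.68, adjusted *P* = 0.00134) and a larger one of *FOSL1* (3.67 ± 1.05, adjusted *P* = 0.00291) and *FOSL2* (1.03 ± 0.35, adjusted *P* = 0.0125), 4 of 9 against 36.8%. Between H524 and H82, *JUND* alone differed (1.48 ± 0.36, adjusted *P* = 0.00118), 1 of 9 against 19.7%. The *FOS* differences were the least firm, since leaving out library 4, 6, 9 or 49 in the first case (-3.58 to -4.00, adjusted *P* = 0.0503 to 0.0761) and any of 24, 25, 26, 49, 51, 52, 53 and 54 in the second (-2.84 to -4.07, adjusted *P* = 0.0515 to 0.159) lost the call. The *FOSL2* difference lost it without library 22, 25, 27, 49 or 50 (0.58 to 0.98). The *FOSL1* difference between H69 and H524 fell to 2.04 (adjusted *P* = 0.0391) without library 22, and was not called with a pseudocount of 0.1 (2.78, adjusted *P* = 0.127) or in a fit of only the groups compared (3.67, adjusted *P* = 0.0679). Members gained without 1 library were *JUND* for H69 against H82 (without 4, 7, 9, 50, 51 or 53, 1.00 to 1.23), *ATF3* for H69 against H82 without 5 (-2.03) and for H524 against H82 without 4 (1.86), *BATF3* for H524 against H82 without 22 (1.11) and for H69 against H524 without 24 (1.08), and *JUN* for H69 against H524 without 23 (-2.38).

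REST was also expressed on its own in H524. No member was called between REST with and without doxycycline, where 1.87% of all genes were, and none between uninduced REST cells and the parental line, where 0.264% were. In limma, none and 2 of the 9 had an unadjusted *P* under 0.05 in these comparisons. *REST* itself was at 6.87 to 10.72 with doxycycline and at 4.90 to 5.05 without. *FOS* was at 2.75, 1.04 and 1.01 without and 4.34, 2.36 and 3.52 with doxycycline (1.80 ± 0.96, adjusted *P* = 0.358), and *FOSL2* at 0.57, 0.92 and 0.75 and at 0.75, 1.20 and 1.08 (0.26 ± 0.35, adjusted *P* = 0.75).

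With doxycycline in both, N1ICD cells differed from REST cells of H524 in 7 of 9 members, against 23.8% of all genes. *FOSL2* (3.25 ± 0.35, adjusted *P* = 6.57e-06), *FOSB* (2.75 ± 0.40, adjusted *P* = 8.77e-05) and *JUNB* (2.13 ± 0.37, adjusted *P* = 0.000407) were higher in N1ICD cells and kept the call without any single library. *FOS* (3.14 ± 0.96, adjusted *P* = 0.0174), *FOSL1* (2.60 ± 0.95, adjusted *P* = 0.0406) and *ATF3* (1.01 ± 0.34, adjusted *P* = 0.0264) were also higher and *JUN* lower (-1.51 ± 0.56, adjusted *P* = 0.0442), but each of these lost the call in 2 to 6 of the 6 fits that left out a library. The library was 26 or 38 for *FOS* (adjusted *P* up to 0.0701), 26, 27, 37 or 38 for *ATF3* (0.86 to 0.97), any but 27 for *FOSL1* (adjusted *P* = 0.0671 to 0.114) and any of the 6 for *JUN* (adjusted *P* = 0.0548 to 0.142). Without doxycycline, mean *FOSL2* was already 2.51 ± 0.80 in N1ICD vector cells and 0.74 ± 0.18 in REST vector cells. Mean *JUNB* was 5.05 ± 0.80 and 3.37 ± 0.44 there, and mean *FOSB* 0.87 ± 0.84 and 0.04 ± 0.04. The comparison with doxycycline in both includes these uninduced differences, which were not tested on their own. The 2 responses to doxycycline themselves differed in *ATF3* (2.11 ± 0.47, adjusted *P* = 0.00631) and *FOSB* (1.92 ± 0.56, adjusted *P* = 0.028), against 15.6% of all genes. The *FOSB* difference lost the call without library 24, 26, 34, 35, 36, 38 or 39 (1.45 to 1.94, adjusted *P* = 0.0523 to 0.0652), and *FOSL1* (3.10) and *FOSL2* (1.93) were added without library 22.

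In H82 cells with *REST* knockout, *FOSL1* and *FOSL2* were again higher with doxycycline than without it. Here 4 of 9 members were called between doxycycline and no doxycycline, against 29.9% of all genes. *FOSL2* went from 0.04, 0.04 and 0.07 to 3.64, 3.62 and 4.32 (3.82 ± 0.20, adjusted *P* = 3.33e-11) and *FOSL1* from 0.34, 0.31 and 1.94 to 6.31, 5.31 and 5.57 (4.87 ± 0.59, adjusted *P* = 1.77e-06). *JUND* fell from 5.94, 5.95 and 7.03 to 4.27, 4.21 and 4.43 (-2.00 ± 0.32, adjusted *P* = 4.82e-05). *JUNB* rose from 3.40, 3.46 and 4.82 to 5.47, 5.41 and 5.38 (1.53 ± 0.52, adjusted *P* = 0.02), a call lost without library 28 or 29 (1.28 and 1.31, adjusted *P* = 0.0839 and 0.0789). *FOS* was at 1.64, 1.35 and 7.66 without and 4.15, 4.46 and 4.33 with doxycycline, where the value of 7.66 is library 30, high in *EGR1*. The *FOS* difference was 0.76 ± 1.32 (adjusted *P* = 0.653) with that library and 2.82 (adjusted *P* = 0.0325) without it.

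The responses of *FOSL2* and *FOSL1* to doxycycline were larger with *REST* knockout than without, by 1.50 ± 0.28 (adjusted *P* = 0.00114) and 2.63 ± 0.83 (adjusted *P* = 0.0371), 2 of 9 members against 12.9% of all genes. The *FOSL2* call held without any single library, and the *FOSL1* call was lost without library 4, 6, 8, 9, 28, 29, 31 or 33 (2.34 to 2.71, adjusted *P* = 0.0524 to 0.0961). The *FOSL1* call was also lost in limma with no filter (adjusted *P* = 0.0562). Mean *FOSL1* without doxycycline was 0.86 in knockout and 1.99 in intact cells, and with doxycycline 5.73 and 4.23. *NOTCH1* was also higher in the induced knockout libraries (8.75 to 10.74) than in the induced intact ones (4.26 to 5.56), and its part in these differences was not tested.

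Set side by side with doxycycline, *REST* knockout cells had more *FOSL2* than intact cells (1.19 ± 0.20, adjusted *P* = 0.000169) and more *JUNB* (1.53 ± 0.52, adjusted *P* = 0.0265), 2 of 9 members against 17.6% of all genes. *FOSL2* was at 1.00 without library 8 and 0.96 without library 33, at the edge of the size needed, and *JUNB* lost the call without library 7, 8, 31, 32 or 33 (1.21 to 1.57, adjusted *P* = 0.0517 to 0.13). *FOSL1* (1.90) and *JUND* (1.04) were called without library 7, and *JUND* (1.07) also without library 9. Without doxycycline, *JUN* (2.01 ± 0.67, adjusted *P* = 0.0492) and *JUND* (1.22 ± 0.32, adjusted *P* = 0.0166) were called higher in the knockout, 2 of 9 against 6.24% of all genes. Both calls rested on library 30, without which they were 1.13 (adjusted *P* = 0.256) and 0.85 (adjusted *P* = 0.0998). *JUN* was also lost without library 4, 6 or 28 (1.76 to 2.43, adjusted *P* = 0.051 to 0.138) and *JUND* without library 4 (0.95, adjusted *P* = 0.0751).

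In the H82 libraries labelled *STING1* knockout, 2 of 9 members were called between doxycycline and no doxycycline, against 20.2% of all genes. *FOSL2* rose from 0.49, 0.25 and 0.28 to 2.20, 1.88 and 2.14 (1.74 ± 0.20, adjusted *P* = 1.96e-06). *JUNB* rose from 3.99, 4.19 and 3.85 to 4.73, 6.23 and 5.19 (1.37 ± 0.52, adjusted *P* = 0.0459), a call lost without library 55, 56, 57, 59 or 60 (0.95 to 1.47, adjusted *P* = 0.071 to 0.198). *FOSL1* was already at 3.98, 4.17 and 3.05 without doxycycline and overlapped its values of 4.41, 3.04 and 4.75 with it (0.33 ± 0.59, adjusted *P* = 0.69). *FOS* was at 2.68, 2.25 and 2.73 and at 4.77, 7.49 and 4.64 (3.08 ± 1.32, adjusted *P* = 0.0743), and at 2.16 (adjusted *P* = 0.00496) without the libraries high in *EGR1*, of which 59 is one. No member's response was called as different from that of intact cells, where 7.12% of all genes were, and 2 of 9 members had an unadjusted *P* under 0.05 in limma. The *JUND* response was called as different without library 4 (1.73, adjusted *P* = 0.0193) or 60 (1.64, adjusted *P* = 0.0482). It was also called with quantile normalization (1.55, adjusted *P* = 0.0344) and in a fit of only the groups compared (1.46, adjusted *P* = 0.0433). Without the libraries high in *EGR1* the *JUND* difference was 1.36 (adjusted *P* = 0.0291), again a call.

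*JUND* was called higher with *STING1* knockout than in intact cells in all 4 such comparisons, 2 in H82 and 2 in COR-L88. Without doxycycline it was at 6.59, 6.77 and 6.51 in the H82 libraries labelled *STING1* knockout and at 4.56, 5.29 and 5.42 in intact ones (1.54 ± 0.32, adjusted *P* = 0.00145). *FOSL1* was called higher there as well (1.74 ± 0.59, adjusted *P* = 0.0291), 2 of 9 members against 14.4% of all genes, but not without library 4, 5, 55 or 56 (1.52 to 1.68, adjusted *P* = 0.063 to 0.102). With doxycycline *JUND* was at 6.52, 6.57 and 6.00 against 3.57, 2.89 and 3.63 (3.00 ± 0.32, adjusted *P* = 3.2e-06). *JUNB* was called higher (1.50 ± 0.52, adjusted *P* = 0.0296) and *BATF3* lower (-1.27 ± 0.24, adjusted *P* = 0.000488), 3 of 9 against 16.5% of all genes. *JUNB* lost the call without library 7, 8, 59 or 60 (1.07 to 1.59, adjusted *P* = 0.0506 to 0.144), and *BATF3* was at -0.98 without library 59.

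In COR-L88 the same order was seen under DMSO, with *JUND* at 7.12, 6.90 and 6.91 in *STING1* knockout cells and 6.14, 5.95 and 5.63 in intact cells (1.07 ± 0.20, adjusted *P* = 0.00927), 1 of 9 members against 1.47% of all genes. Under TAS1440 it was at 6.53, 6.13 and 6.48 against 5.76, 5.03 and 4.90 (1.15 ± 0.20, adjusted *P* = 0.00137). *BATF3* was lower (-1.11 ± 0.27, adjusted *P* = 0.00838), 2 of 9 against 6.53%. *JUND* fell just under a difference of 1 without library 12 (0.94) in the first and library 15 (0.99) in the second comparison, and *BATF3* without library 13 (-0.77) or 45 (-0.85). *FOSL1* was called lower in the knockout under TAS1440 without library 15 (-2.32) or 44 (-2.05).

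Base composition moved with some of these differences and little with others. The longest *JUND* transcript is 69.9% G and C, above 99.7% of the genes tested in H82, and that of *JUNB* is 64.9%. Between *STING1* knockout and intact H82 cells with doxycycline, the genes in the top 10th by G and C content had a median difference of 0.69 and those in the bottom 10th of -0.52, against -0.10 over all genes with a known transcript. Without doxycycline the same medians were 0.32 and -0.32, and in COR-L88 they were 0.16 and -0.17 under DMSO. Under TAS1440, where *JUND* differed by 1.15, they were -0.02 and -0.15, against -0.08 over all genes. Between *REST* knockout and intact H82 cells they were 0.60 and -0.33 with doxycycline, where *JUNB* was called higher and *JUND* differed by 0.94 (adjusted *P* = 0.0282), and 0.27 and -0.15 without it. In the response of intact H82 cells to N1ICD, where *JUND* fell, the medians were -0.22 and 0.17, and in *REST* knockout cells, where it also fell, 0.05 and -0.04. The part of base composition in the *JUND* and *JUNB* values was not tested.

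TAS1440 raised *FOSL1* and *FOSL2* in COR-L88, which had no vector for N1ICD. Against DMSO, 4 of 9 members were called, all higher, where 22.8% of all genes were called. *FOSL1* went from 0.99, 0 and 0.33 to 7.27, 6.13 and 4.38, groups far apart (5.49 ± 0.65, adjusted *P* = 8.37e-06). *FOSL2* went from 2.84, 3.22 and 3.31 to 4.51, 4.29 and 4.28 (1.24 ± 0.15, adjusted *P* = 1.21e-05), and both calls held without any single library. *BATF3* rose from 1.51, 1.37 and 1.47 to 3.32, 2.10 and 2.50 (1.19 ± 0.27, adjusted *P* = 0.00178) and was at 0.85 without library 13. *ATF3* rose from 2.32, 2.67 and 3.19 to 3.75, 3.41 and 4.05 (1.01 ± 0.28, adjusted *P* = 0.00659) and was at 0.81 to 0.98 without library 10, 11 or 15.

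*FOS* and *JUNB* in COR-L88 depended on library 10, the DMSO library high in *EGR1*. *FOS* was at 6.60, 2.24 and 2.12 under DMSO, where the first value is library 10, and at 4.92, 4.46 and 5.34 under TAS1440. *JUNB* was at 6.89, 4.39 and 4.11 and at 6.12, 6.35 and 6.70. The groups overlapped, and neither difference was called (1.25 ± 1.09 and 1.26 ± 0.64, adjusted *P* = 0.345 and 0.109). Without library 10 the differences were 2.73 (adjusted *P* = 0.0168) and 2.14 (adjusted *P* = 0.00284). In *STING1* knockout cells, whose DMSO libraries held none of those high in *EGR1*, TAS1440 raised *FOS* from 2.74, 1.25 and 1.60 to 6.33, 4.32 and 4.11 (3.06 ± 1.09, adjusted *P* = 0.0368) and *JUNB* from 4.34, 3.90 and 4.25 to 6.98, 6.06 and 5.68 (2.08 ± 0.64, adjusted *P* = 0.0184). The values of 6.33 and 6.98 are library 43, where *EGR1* was 1.77 above its group median, just under the cut of 2. *FOS* was 2.01 above its median there.

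In those knockout cells *FOSL1* (4.10 ± 0.65, adjusted *P* = 0.000176) and *ATF3* (1.47 ± 0.28, adjusted *P* = 0.000728) also rose, 4 of 9 members in all against 16.0% of all genes. *FOS* lost the call without library 41, 42, 43 or 44 (2.35 to 3.36, adjusted *P* = 0.0553 to 0.139) and *JUNB* without library 43 (1.71, adjusted *P* = 0.0753). *FOSL2* rose less, from 3.23, 3.28 and 3.07 to 3.74, 3.88 and 3.31 (0.45 ± 0.15, adjusted *P* = 0.0276), under the size needed for a call. No member's response to TAS1440 was called as different between knockout and intact cells, where 4.23% of all genes were, and 2 of 9 members had an unadjusted *P* under 0.05 in limma. The nearest was *FOSL2* (-0.79 ± 0.21, adjusted *P* = 0.0396), under the size needed.

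Adding the GSI to TAS1440 lowered 3 members in COR-L88. *FOSL1* was at 2.83, 3.23 and 2.94 with the GSI, between the values under DMSO and under TAS1440 alone and overlapping neither. *FOSL2* was back at 3.26, 3.24 and 3.23 and *BATF3* at 1.30, 1.28 and 1.17. TAS1440 alone exceeded TAS1440 with GSI by 2.93 ± 0.65 in *FOSL1* (adjusted *P* = 0.00231), 1.12 ± 0.15 in *FOSL2* (adjusted *P* = 6.23e-05) and 1.39 ± 0.27 in *BATF3* (adjusted *P* = 0.000863), 3 of 9 members against 14.7% of all genes. These 3 calls held without any single library, while quantile normalization and median centring brought *FOSL2* to 0.97 and 0.98. Against DMSO, 1 of 9 members, *FOSL1*, was still higher with the GSI (2.56 ± 0.65, adjusted *P* = 0.0102), against 9.02% of all genes, and *FOS*, *JUN* and *JUNB* were added once library 10 was left out (2.69, 1.14 and 1.71, adjusted *P* = 0.0423, 0.00713 and 0.0269). *JUN* was also added without library 18 (1.01, adjusted *P* = 0.0418).

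In KP1 cells TAS1440 raised *Fos*, *Fosl2* and *Junb*, 3 of the 6 members tested, where 18.8% of all genes were called. *Junb* went from 3.06, 3.15 and 3.43 under DMSO to 6.15, 6.79 and 5.73 (3.01 ± 0.27, adjusted *P* = 3.04e-05) and *Fosl2* from 1.06, 1.09 and 0.96 to 3.79, 3.13 and 2.73 (2.18 ± 0.26, adjusted *P* = 0.000179). *Fos* went from 1.89, 1.83 and 2.80 to 3.49, 5.00 and 3.17 (1.71 ± 0.46, adjusted *P* = 0.0161), a call lost without library 1 or 2 of the KP1 table (1.57 and 1.54, adjusted *P* = 0.06 and 0.0607). *Jund* was at 6.65 to 6.74 and at 6.57 to 6.81 (0.04 ± 0.18, adjusted *P* = 0.873). *Atf3* was at 4.03, 3.87 and 1.53 under TAS1440 against 2.02 to 2.49 under DMSO, and was called without library 6, the one at 1.53 (1.76, adjusted *P* = 0.00546).

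With the GSI, the 3 members fell to or below their DMSO values. *Junb* was at 2.33, 2.56 and 2.75, *Fosl2* at 0.33, 0.31 and 0.90 and *Fos* at 2.25, 2.06 and 2.68. None of the 6 was called between TAS1440 with GSI and DMSO, where 1.21% of all genes were, and 2 had an unadjusted *P* under 0.05 in limma. TAS1440 alone exceeded TAS1440 with GSI in *Junb* (3.68 ± 0.27, adjusted *P* = 1.34e-05), *Fosl2* (2.71 ± 0.26, adjusted *P* = 5.9e-05) and *Fos* (1.56 ± 0.46, adjusted *P* = 0.0278), 3 of 6 against 16.5% of all genes, and the last lost its call without library 7 or 8 (1.52 and 1.43, adjusted *P* = 0.0797 and 0.0953). *Atf3* was called in this comparison without library 6 (2.14, adjusted *P* = 0.00231), and the *Fos* difference was 1.00 without library 5 (adjusted *P* = 0.0438). *Fosl1* was under the filter, at 0.03, 0.06 and 0.01 under DMSO, 1.15, 2.34 and 0.58 under TAS1440 and listed at 0 in the 3 libraries with the GSI, and was called against DMSO when no filter was applied (1.32, adjusted *P* = 0.0422). *Fosb* (0.16 to 1.59 over the 9 libraries) and *Batf3* (0.18 to 0.70) were also under it.

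**Figure D5:**
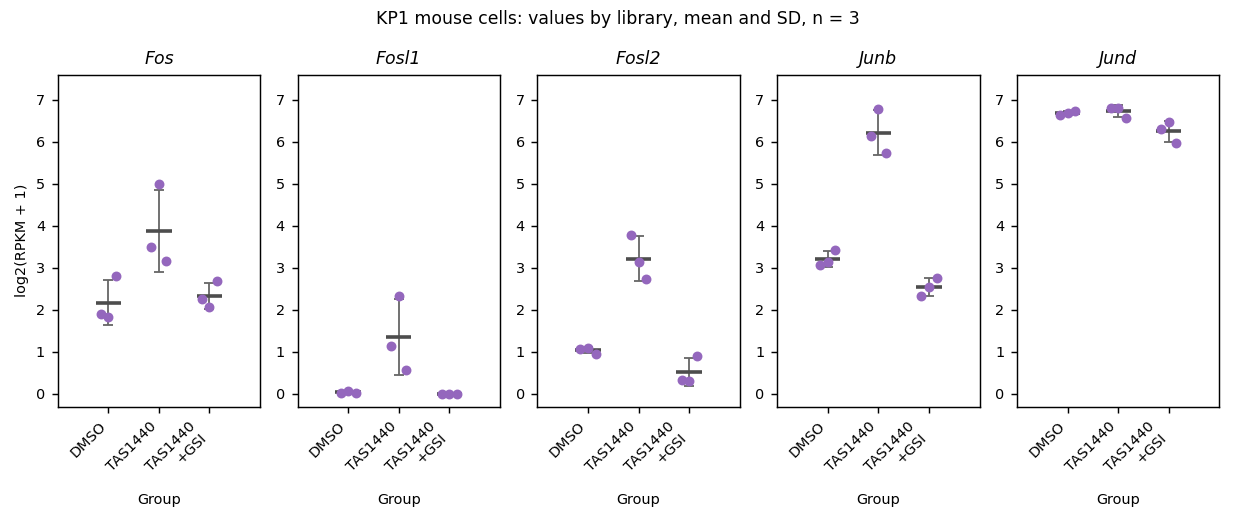
Points are the log2(RPKM + 1) of 5 members in the 9 KP1 libraries, with bars for the mean and whiskers for the SD of 3 libraries. *Fos*, *Fosl1*, *Fosl2* and *Junb* are higher with TAS1440 than with DMSO or with TAS1440 and GSI, and *Jund* stays between 5.98 and 6.81.

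Genes around AP-1 were counted in lists chosen with earlier results of these data known, so each count is a description beside the share of all genes called in the same direction. Of all genes tested, 14.7% were called higher in H82, 11.4% in H524, 21.4% in H69, 15.3% in COR-L88 and 9.09% in KP1. Called lower were 12.4%, 7.19%, 20.4%, 7.46% and 9.7%, in the same order. Of genes often named as AP-1 targets, 10 of 13 tested rose in H82 with N1ICD and none fell (median difference 3.05, against 0.00 over all genes), 8 of 13 rose in H524 (1.15, against -0.02), 9 of 15 rose and 2 fell in H69 (2.15, against 0.08), 12 of 13 rose in COR-L88 with TAS1440 (3.08, against 0.01) and 8 of 10 rose and 1 fell in KP1 (3.09, against 0.02). *THBS1*, which encodes thrombospondin 1, rose in all 5 comparisons, by 6.33 ± 0.59 in H82, 3.92 ± 0.51 in H524, 6.00 ± 0.08 in H69, 5.71 ± 0.40 in COR-L88 and 6.24 ± 0.40 in KP1 (adjusted *P* between 6.89e-11 and 4e-05).

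Other immediate early genes rose in part. In H82 9 of 17 rose and none fell, in H524 12 of 17, in H69 8 with 2 lower, in COR-L88 6 of 17 and in KP1 11 of 17 with 1 lower. *EGR1* rose by 5.78 ± 1.18 in H82 (adjusted *P* = 0.00055), 5.43 ± 0.57 in H524 and 2.97 ± 0.42 in H69, where *FOS* was not called, and *IER3*, an early survival gene, by 2.91 ± 0.36 in H82, 3.67 ± 0.25 in H69 and 4.05 ± 0.40 in COR-L88. *Egr1* rose by 4.23 ± 0.64 and *Ier3* by 4.60 ± 0.39 in KP1. Among other bZIP genes, 7 of 18 rose in H82, 11 of 18 in H524, 3 of 18 in H69 (with 1 lower), 2 of 19 in COR-L88 and 5 of 15 in KP1. *JDP2*, a partner of JUN that represses AP-1 sites, was among them in all 4 human lines, at 4.95 ± 0.43 in H82, 2.69 ± 0.46 in H524, 2.78 ± 0.35 in H69 and 1.49 ± 0.37 in COR-L88. Of the bZIP genes in H524, 9 of 18 were lower in uninduced N1ICD cells than in parental cells and 0 higher. With doxycycline in both, 5 of 18 were higher and 1 lower in N1ICD cells than in REST cells.

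MAP kinases phosphorylate AP-1 proteins, and MAP kinase kinases act on the MAP kinases. Transcripts of a list holding both were mostly not called, with 3 of 15 lower in H82, 1 higher and 1 lower of 15 in H524, 1 higher and 4 lower of 16 in H69, none of 15 in COR-L88 and 2 of 13 lower in KP1. The genes lower in H82 were the MAP kinase kinases *MAP2K6*, *MAP2K7* and *MAP2K1*. Genes that MAP kinase signaling induces as feedback rose in H82 (9 of 14, with 1 lower) and COR-L88 (10 of 13), whereas in H69 2 of 12 rose and 5 fell. *ETV5*, an ETS factor of this list, rose by 5.64 ± 0.51 in H82, 2.70 ± 0.84 in H524, 2.22 ± 0.32 in H69 and 2.87 ± 0.32 in COR-L88, while *SPRY1*, an inhibitor of receptor signaling, rose by 2.17 ± 0.24 in COR-L88 and fell in H69 (-3.29 ± 0.14), and *Spry1* rose by 3.17 ± 0.51 in KP1.

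Stress genes of the ATF4 pathway, to which *ATF3* also responds, rose in H82 and H524 (8 of 10 each) and little elsewhere, with 2 higher and 2 lower of 10 in H69, 1 of each in COR-L88 and 2 higher in KP1. In H524, uninduced N1ICD cells were themselves lower than parental cells in 5 of these 10 genes and higher in 0 (median difference -1.50). With doxycycline in both, N1ICD cells were higher than REST cells in 4 of the 10 and lower in 0. *NUPR1*, a stress-induced chromatin protein, rose by 9.19 ± 0.79 in H82, 8.69 ± 0.62 in H524 and 4.86 ± 0.26 in H69. Heat shock genes fell in H82 (7 of 13, with 2 higher) and rose in COR-L88 (6 of 12), with 1 higher and 3 lower of 13 in H524, 4 and 2 of 12 in H69 and 2 higher of 10 in KP1. In uninduced H82, H524 and H69, libraries 5, 23 and 49 carried high *HSPA1A*, and their part in these counts was not tested.

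NE markers fell in the same comparisons, 7 of 8 in H82, 7 of 9 in H524 (with 1 higher), 8 of 9 in H69, 7 of 9 in COR-L88 and 7 of 7 in KP1. In bulk RNA, fewer cells of a type and less RNA per cell cannot be told apart. Markers of other cell types were summed for each library. The sum over 9 such genes was 1.29 to 6.16 in uninduced and 7.78 to 9.36 in induced H82, 1.12 to 4.82 and 6.04 to 6.85 in H524, 2.15 to 3.19 and 23.2 to 23.8 in H69 and 0.11 to 0.19 and 2.84 to 4.52 in COR-L88 with DMSO and TAS1440. Few of these genes passed the filter, 2 in H82, 2 in H524, 4 in H69, 1 in COR-L88 and 1 in KP1. *COL1A1*, a collagen gene of fibroblasts, was the one called of those tested in H82 (4.37 ± 0.57) and H524 (4.42 ± 0.23). In H69 *COL1A1*, *KRT5* and *DCN* were called (10.10 ± 0.11, 5.65 ± 0.25 and 3.70 ± 0.06). The 1 gene tested in COR-L88, the macrophage marker *CD68*, rose with TAS1440 from a mean of 0.01 (2.04 ± 0.19). The 1 tested in KP1, the alveolar marker *Sftpc*, fell (-3.04 ± 0.19). Of the immune markers, *CD3E* of T cells was listed at 0 in every library of the induced H82 and H524 groups, and *PTPRC* of leukocytes in every library of the uninduced groups but not of the induced ones. In KP1 the sum over 8 genes was 4.11 to 4.94 under DMSO and 1.57 to 6.64 under TAS1440. Their part in the member differences was not tested.

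The genes most like each member were taken from 15888 genes by Pearson's r over the 20 human group means, which share lines and control groups, so r is a description only. *NFKBIZ* (0.89) and *EGR1* (0.88) were the nearest to *FOS*, *ORAI3* (0.83) and *C4B* (0.82) to *FOSB*, *CLCF1* (0.93) and *YAP1* (0.90) to *FOSL1*, and *IFIH1* (0.92) and *TOR1B* (0.91) to *FOSL2*. In the JUN family they were *CTSK* (0.88) and *TMEM44* (0.82) for *JUN*, *SLC22A18* (0.89) and *METRN* (0.88) for *JUNB*, and *TMEM160* (0.90) and *DOT1L* (0.88) for *JUND*. *PARD3B* (0.88) and *GINM1* (0.83) were nearest to *ATF3*, and *PLEKHB2* (0.94) and *RP2* (0.93) to *BATF3*. Among members, the closest pairs over the group means were *FOSL2* with *JUNB* (0.84) and *FOS* with *FOSB* (0.80), and *JUND* went against *BATF3* (-0.58).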

How the data were processed

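Per the labels and the study's methods, polyA RNA was sequenced as paired ends, cutadapt served for trimming, STAR for alignment to hg19 and RSEM for quantification (mm10 is also named, for the mouse line), and the authors deposited log2(RPKM + 1) values, scaled by TMM in edgeR, in 1 table for the human lines and 1 for KP1. The tables were scaled separately, so levels were compared only within a table. No counts were used and total depth is unknown. The 9 members and all gene lists were chosen with earlier results of these data known. Each line was fitted alone (between-line differences over all 60 human libraries) by limma 3.58.1 (run under R 4.3.3), using a mean for each group, moderated variances with a trend, genes at 1 or above in at least 3 libraries of the fit, and Benjamini-Hochberg adjustment over all genes tested (13903 in H82, 13648 in H524, 13580 in H69, 13134 in COR-L88, 8260 in KP1 and 15888 in the fit over all lines). A call needed an adjusted *P* under 0.05 and a log2 difference of at least 1. The named genes were all members, the targeted genes, up to 4 called genes of a list with the largest differences, and the 2 genes nearest to each member; where a list gene was followed across lines, and for library effects, genes were picked after their values were seen. Alternatives were no filter, a pseudocount of 0.1, quantile normalization, median centring, variances without a trend, only the groups compared, and each library left out, and, added after the data were seen, the libraries high in *EGR1* or in *HSPA1A* left out together. The script was tested on simulated data. G and C content came from the longest GENCODE transcript, for over 93% of the genes tested. Results for some genes are not reported here.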

Additional observations from a re-analysis of the deposited data

Results flagged for a closer look

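The results listed here are member responses that differed between lines or genotypes by a test of the difference itself. In the limma fit of H82, the response to doxycycline was larger with *REST* knockout by 2.63 (adjusted *P* = 0.0371) for *FOSL1* and by 1.50 (adjusted *P* = 0.00114) for *FOSL2*. In H524, the response to N1ICD exceeded that to REST by 1.92 (adjusted *P* = 0.028) for *FOSB* and 2.11 (adjusted *P* = 0.00631) for *ATF3*. Over all human libraries, the N1ICD response of *JUND* was 1.48 higher in H524 than in H82. Induced *NOTCH1* was lower in H82 than in H524 or H69, as given above, and its part in these differences between lines was not tested. Against H82, H69 differed by -4.16 in *FOS*, 3.69 in *FOSL1*, -2.59 in *JUN* and 1.44 in *BATF3*. Against H524, H69 differed by -4.01 in *FOS*, 3.67 in *FOSL1*, 1.03 in *FOSL2* and -2.59 in *ATF3*. Without library 22 the *FOSL1* value was 2.04 and the *FOSL2* value 0.58, the latter no longer called, and the *FOSL1* call was lost with a pseudocount of 0.1 or in a fit of only the groups compared. Several other calls were lost when certain single libraries were left out, as given above. These were *FOSL1* with *REST* knockout, *FOSB* in H524, and *FOS* for H69 against H82 and against H524. *FOSB* in H524 was also not called in limma with a pseudocount of 0.1 (adjusted *P* = 0.304).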

How the results depend on the processing

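No paired analysis was possible because library numbers run on through each table and no groups share one. No called value changed direction, and leaving out the trend in the variances changed no member's call. Of 504 values of the 71 member calls with 1 library left out, 400 kept the call and 104 lost it, and of 1482 values of members not called, 41 gained one. The counts of members called that moved by over 1.5 times were these, and where no construction of the alternative shows it, the cause was not tested.

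Without a filter, 1 member in place of 2 was called for the H82 response with labelled *STING1* knockout, for uninduced *REST* and uninduced labelled *STING1* knockout against intact H82, and for the difference in response with *REST* knockout. A pseudocount of 0.1 gave 1 in place of 2 for the H82 response with labelled *STING1* knockout, for uninduced labelled *STING1* knockout and for the H524 difference in response, 2 in place of 1 for H524 against H82, and 2 in place of 4 for H69 against H524. Median centring gave 1 in place of 2 for the H82 response with labelled *STING1* knockout and for COR-L88 *STING1* knockout under TAS1440. Quantile normalization gave 2 in place of 4 for TAS1440 in COR-L88 and 1 in place of 0 for the difference in response with labelled *STING1* knockout in H82. Fitting only the groups compared gave 4 in place of 2 for induced *REST* knockout against intact H82, 0 in place of 2 for the uninduced pair, 0 in place of 1 for uninduced H524 against parental, 1 in place of 2 for COR-L88 *STING1* knockout under TAS1440, 1 in place of 0 for the difference in response with labelled *STING1* knockout, and 2 in place of 4 for H69 against H524. Without the libraries high in *EGR1* the count was 1 in place of 2 for uninduced *REST* knockout, 2 in place of 0 for uninduced H82 against parental, 4 in place of 1 for TAS1440 with GSI against DMSO, and 1 in place of 0 for the difference in response with labelled *STING1* knockout. Without those high in *HSPA1A* it was 1 in place of 2 for uninduced labelled *STING1* knockout and 3 in place of 1 for uninduced H524 against parental.

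With each library left out in turn, the count ranged from 3 to 5 for N1ICD in H82, in *REST* knockout H82 and for TAS1440 in COR-L88, from 4 to 7 in H524, 4 to 5 in H69 and 2 to 4 for TAS1440 in KP1. It ranged from 1 to 2 for the H82 response with labelled *STING1* knockout, 0 to 3 and 0 to 2 for induced and uninduced *REST* knockout, 1 to 3 and 1 to 2 for induced and uninduced labelled *STING1* knockout, and 0 to 1 and 0 to 3 for uninduced H82 and H524 against parental. It was 3 to 6 for N1ICD against REST, 1 to 4 for TAS1440 with GSI against DMSO, 2 to 4 for TAS1440 in *STING1* knockout COR-L88, 1 to 3 and 0 to 1 for that knockout under TAS1440 and DMSO, and 2 to 4 for TAS1440 against TAS1440 with GSI in KP1. For the differences in response it was 1 to 2 (*REST* knockout), 0 to 1 (labelled *STING1* knockout), 1 to 4 (H524), 1 to 2 (H524 against H82), 3 to 5 (H69 against H82) and 2 to 5 (H69 against H524). Depth is unknown, so values near 0 carry no counting interval.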
